A study of Mus musculus with 5 samples.

Results

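In 1104 loci of GL261 cells, transcripts that StringTie assembled from the reads carried at least 50% of the expression that would otherwise be read as that of a known reference gene. A locus here is a group of overlapping transcripts that StringTie put under 1 gene identifier, and a locus entered the set when it held assembled transcripts together with Ensembl transcripts of exactly 1 gene name, when the mean TPM (transcript abundance scaled to the same total in every library) of its assembled transcripts over 5 libraries reached 50% of the mean summed TPM, and when that sum was at least 1 TPM. The 1104 loci are 23.5% of the 4691 loci of this mixed kind with a sum of at least 1 TPM, and they hold 3584 of the 15415 assembled transcripts in the files, beside 7105 reference transcripts. The loci were chosen by mean levels over all 5 libraries, so the high mean share of assembled transcripts is a description and not a finding, while the choice used no difference between the treatments, although a locus near the bound can enter through the libraries of 1 group. The remaining 3587 mixed loci are used below for comparison.

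The cells are GL261, an established mouse glioma line labelled as tumour cells, and RNA was taken 24 h after addition of either sodium chloride or sodium propionate. The labels give a dose of 1 uM for both salts, and its unit could not be checked. Sodium chloride, the control salt, had 3 libraries (replicates 1, 2 and 3) and sodium propionate had 2 (replicates 2 and 3), while propionate replicate 1 was not analysed here. The study asks which transcripts change after propionate, a fatty acid of few carbons that microbes of the gut release. Separate cultures are not stated in the labels, and p-values therefore reflect how far these libraries differ from each other, which may be technical variation only.

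Aligned sequence, taken as transcript coverage times length, came to 6.53 to 7.03 Gb per library, and a transcript at 1 TPM had a per-base coverage of 4.73 to 4.99. Vim, Nes, Cd44 and Sox2, which are expressed in many gliomas, were between 44.2 and 7073 TPM in all 5 libraries. Among the other glioma markers examined, Gfap was only at 3.22 to 6.59 TPM and the glial lineage factor Olig2 did not exceed 0.904 TPM. The defining markers of myeloid cells (Ptprc, Aif1), T cells (Cd3e), endothelium (Cdh5) and neurons (Rbfox3, Syt1) did not exceed 0.0644 TPM, and Cd68, a lysosomal protein of macrophages also made by other cells, was at 7.59, 7.03 and 6.22 TPM with chloride and 10.1 and 12.1 TPM with propionate, without overlap, and its part in the results was not tested. Further markers Csf1r, Cd3g and Pecam1 did not exceed 0.306 TPM.

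Many genes give rise to several transcripts through alternative promoters, splice sites and polyadenylation sites. The spliceosome cuts an intron at a donor site, which usually starts with GT, and an acceptor site, which usually ends with AG, and a pair of acceptors standing 1 codon apart can add or drop a single amino acid. Assemblers such as StringTie build transcripts from spliced alignments and then divide the reads that fit several overlapping transcripts among them, so the level of 1 isoform is an estimate that depends on its neighbours. TPM divides by transcript length, so the TPM sum of a locus also moves when reads are assigned to a shorter or longer isoform.

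The exact joins are shown first because they are what distinguishes many of these assembled transcripts from the reference. In 39 loci the assembled transcript with the highest mean TPM, called the leading transcript below, used an acceptor exactly 3 bases from a reference acceptor. Among the new introns with only 1 new splice site, 41 lay exactly 3 bases from a reference site of the same kind, and 39 of these were acceptors. The shift shortened the downstream exon by 3 bases in 22 loci and lengthened it in 17, and in 38 of the 39 a reference transcript joins the same donor to the acceptor 3 bases away. All 25 of these introns whose last bases lie inside a reference exon, where they can be read, ended in AG. In 31 of the 39 loci this was the only new intron of the leading transcript. The joins below come from GENCODE M21 transcript sequences on GRCm38, are written 5′ to 3′ along the transcript, and carry the first bases of the downstream exon in capitals. Rps25 (a protein of the small ribosomal subunit, plus strand) has its assembled intron at chr9:44408084-44408688 and its reference intron at chr9:44408084-44408685. Tmem59 (a membrane protein linked to autophagy, plus strand) has its assembled intron at chr4:107197615-107200370 and its reference intron at chr4:107197615-107200367. Bcas1 (a gene known from oligodendrocytes, minus strand) has its assembled intron at chr2:170384324-170387162 and its reference intron at chr2:170384327-170387162.
Rps25 assembled: aaggccaagaagaagTGGTCCAAAGGCAAA
Rps25 reference: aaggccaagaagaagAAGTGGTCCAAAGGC
Tmem59 assembled: tatgttccccctgagCTGAGTATCTATGGT
Tmem59 reference: tatgttccccctgagAAGCTGAGTATCTAT
Bcas1 assembled: gacccagaagacacgGCAACCAAGGCAGAC
Bcas1 reference: gacccagaagacacgAAGGCAACCAAGGCA
In each of these 3 pairs the assembled join lacks a single AAG that opens the downstream exon of the reference join. Rps25 stands here by the naming rule, whereas Tmem59 and Bcas1 were chosen after their values were seen.

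In all, 90 new introns in 85 leading transcripts lay wholly inside 1 reference exon, 3 of them among those with an acceptor 3 bases off. Their median length was 119 bases, and 27 were shorter than 70 bases. Of the 88 whose end bases could be read, 50 began with GT and ended with AG and 4 began with GC and ended with AG. Of these, 9 lay inside a coding exon, and the length was a multiple of 3 in 8 of the 9, the exception being that of Xbp1. The joins of the most abundant examples follow, from the same source and with the same capitals. Ubb encodes polyubiquitin, a chain of ubiquitin copies read head to tail. The Ubb transcript skipped 228 bases at chr11:62552422-62552649 (plus strand), the length that encodes 1 ubiquitin. Xbp1, a transcription factor of the unfolded protein response, lost 26 bases at chr11:5524278-5524303 (plus strand), starting with GC and ending with CT. The stress sensor IRE1 is known to cut an intron of that length out of Xbp1 mRNA, which changes the reading frame. The ribosomal RNA locus CT010467.1 lacked 1495 bases at chr17:39846601-39848095 (plus strand) and the pseudogene Gm15459 lacked 637 bases at chr5:5782082-5782718 (minus strand). The pseudogenes Gm4617 (27 bases at chr3:124385844-124385870, plus strand) and Gm9800 (30 bases at chr14:8800126-8800155, minus strand) had the same join.
Xbp1 assembled: gggtctgctgagtccGCAGCAGGTGCAGGC
Ubb assembled: accatcaccctggagGTGGAGCCCAGTGAC
CT010467.1 assembled: atcaaaaccaacccgGCCCACGGCCCTGGT
Gm15459 assembled: tcctccagcacccagATAAGAGCACAGGAA
Gm4617 and Gm9800 assembled: aagaagaggaagaagGTGACGGTGAGGAGG
Xbp1 and Gm9800 were chosen after their values were seen. Ubb repeats nearly the same sequence within 1 exon and the pseudogenes copy other genes, so the place of their reads is uncertain.

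Over all 1104 loci, the leading transcript most often contained the whole intron chain of some reference transcript, which can be a short one, and added further introns. This class held 519 loci (47.0%), against 56.8% of the other mixed loci, and in 273 of the 519 every intron was known from a reference transcript of the locus. In 185 loci (16.8%, against 11.2%) the leading transcript had an exon that spans a whole reference intron. New splice sites without either feature made up 270 loci (24.5%, against 20.5%). The remaining classes were new combinations of known sites (62 loci), parts of a reference chain (41) and single exons (27). Examples with high leading transcripts were Spcs3, a subunit of the signal peptidase, for a new splice site, Gars, the glycyl-tRNA synthetase, for a retained intron, Rhox2h, a reproductive homeobox gene, for a new combination, Rpl29, a protein of the large ribosomal subunit, and Ogt, the enzyme that adds O-linked GlcNAc, for part of a chain, and Cdv3-ps and Ccdc152 for a single exon. The assembled share of Spcs3 was 99.7% to 100% and that of Gars 97.7% to 99.3% in the 5 libraries. Ogt was uneven, with 82.7%, 88.5% and 60.6% with chloride and 88.3% and 26.5% with propionate, at a sum of 49.8 to 54.4 TPM. In 291 loci (26.4%) the leading transcript had no base outside reference exons, against 41.9% of the other mixed loci. It passed the 5′ end of its gene in GENCODE M21 in 417 loci (37.8%, against 25.8%) and the 3′ end in 575 (52.1%, against 32.3%). The deposited files place the right-hand end of 65.97% of the reference transcripts farther right than GENCODE does, and against those deposited ends the counts were 249 (22.6%, against 15.6%) and 369 (33.4%, against 17.7%). A whole reference coding sequence was held by 493 of the 887 leading transcripts of coding loci (55.6%), a share close to the 53.6% of the other loci. These shares compare 2 sets that differ in level and gene type, and no test was run on them.

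Protein-coding genes made up 883 of the 1104 loci (80.0%), against 95% of the other mixed loci. Processed pseudogenes followed with 64 loci, long intergenic non-coding RNAs with 61 and antisense RNAs with 34. The median summed level was 9.89 TPM, against 17.8 TPM in the other mixed loci, and the assembled transcripts of the set held 2.51% to 2.76% of all TPM in a library. In 338 loci (30.6%) a single assembled transcript carried the whole assembled share. Ahnak, a giant scaffold protein gene, had the most, with 59 assembled among 64 transcripts.

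The assembled share of a locus is the TPM of its assembled transcripts over the TPM of all its transcripts in 1 library. Its median over the 1104 loci was 75.3%, 73.1% and 73.2% in chloride replicates 1, 2 and 3 and 73.3% and 74.7% in propionate replicates 2 and 3. The libraries thus overlapped closely as wholes, and between 942 and 963 loci reached 50% in each. Single loci were less even: 612 (55.4%) reached 50% in all 5 libraries, 270 in 4, 180 in 3, 39 in 2 and 3 in 1.

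**Figure D1:**
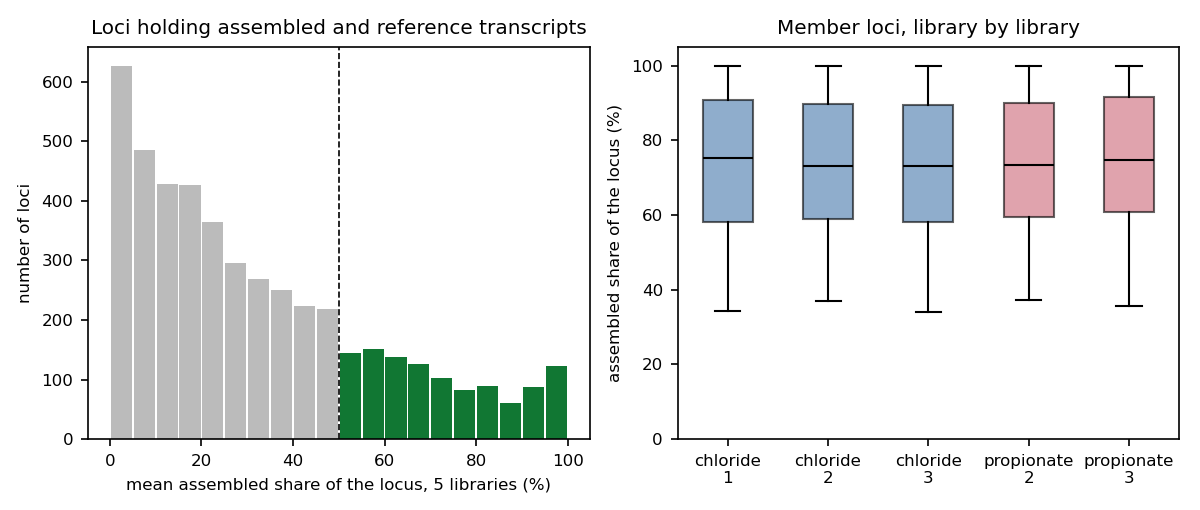
Left, number of mixed loci by mean assembled share over 5 libraries (% of locus TPM), with the 1104 chosen loci in green right of the dashed line at 50%. Right, assembled share of these loci (%) in each library as boxes (median and quartiles) with whiskers from the 5th to the 95th percentile; the medians lie between 73.1% and 75.3%.

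Within the 3 chloride libraries the share of a locus ranged over a median of 16 percentage points, and in 107 loci (9.69%) it ranged over more than 50 points. The absolute difference between the group means had a median of 6.81 points and exceeded the chloride range in 218 loci (19.8%). This count was not made in the other mixed loci, so it has no background beside it and is a description. The median chloride range was 14.3 points in the 547 loci with a sum of at least 10 TPM and 17.2 points in the 557 below. In 74 loci (6.70%) the share fell under 10% in 1 library and stood above 50% in another, and in 50 of these both extremes were chloride libraries. That pattern was seen in 620 of the other mixed loci (17.3%). In 22 of the 74 the highest summed level was less than 1.5 times the lowest.

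Rps25, a highly expressed ribosomal protein gene, had an assembled share of 0%, 60.0% and 66.1% in chloride replicates 1, 2 and 3 and of 69.4% and 60.4% in propionate replicates 2 and 3. Chloride replicate 1 stood apart from the other 4 libraries, and the groups overlapped. The summed level was 843, 1036 and 1150 TPM with chloride and 1112 and 1083 TPM with propionate, a difference smaller than the spread (limma adjusted p = 0.653). In chloride replicate 1 the reference transcript ENSMUST00000080300, whose join differs by the 3 bases shown above, was at 660 TPM, against 256 to 344 TPM in the other libraries. Rps25 has near-identical copies in the genome, so the division of its reads is uncertain.

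Tmem59 had the same arrangement at the same kind of acceptor. Its assembled share was 0%, 81.2% and 88.2% with chloride and 81.9% and 85.3% with propionate. The sum held at 136, 136 and 132 TPM with chloride and 127 and 150 TPM with propionate, so the library without the assembled form was not low in total. Over the 39 loci with an acceptor 3 bases off, the mean share ran from 51.2% to 99.5% with a median of 62.0%, the median chloride range was 16.1 points, and the assembled share was 0 in at least 1 library in 2 loci. These shares count all assembled transcripts of a locus, so they do not measure use of the shifted acceptor. In Hhla1, the locus at 99.5%, the leading transcript with that acceptor was listed at 0 in every chloride library. It was also listed at 0 in chloride replicate 3 in Fam193a, Mycbp2 and Mttp.

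Ptges3, which encodes the Hsp90 co-chaperone p23, changed its apparent main isoform between replicates of both groups. The assembled share was 97.8%, 1.63% and 99.5% with chloride and 91.3% and 1.11% with propionate. High and low libraries occurred on both sides, and the sum was 102, 125 and 126 TPM with chloride and 92.0 and 124 TPM with propionate. The leading assembled transcript was at 100 TPM in chloride replicate 1 and at 2.51 TPM in chloride replicate 3, where a second assembled transcript reached 123 TPM.

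Vcp, an AAA ATPase that extracts ubiquitinated proteins, had a share of 35.1%, 20.6% and 97.1% with chloride and 96.5% and 96.6% with propionate. Chloride replicate 3 sided with the propionate libraries, so the groups overlapped (limma adjusted p = 0.919). Its reference transcript ENSMUST00000030164 was at 128 and 149 TPM in chloride replicates 1 and 2 and was listed at 0 in the other 3 libraries. The leading assembled transcript, which retains an intron, was at 72.0, 39.9 and 158 TPM with chloride and 145 and 66.2 TPM with propionate.

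Xbp1 was steady by comparison. Its assembled share, which 1 transcript that lacks the 26 bases makes up alone, was 58.9%, 50.5% and 56.5% with chloride and 64.3% and 56.9% with propionate, and the groups overlapped (limma adjusted p = 0.924). The level of that transcript was 36.3, 31.5 and 30.5 TPM with chloride and 32.8 and 33.8 TPM with propionate. The reference transcript ENSMUST00000063084 was at 15.3, 16.3 and 15.1 TPM with chloride and at 5.17 and 18 TPM with propionate.

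Also among the 12 loci with the highest sums, out of genes without predicted names, were Ubb, Ppfibp1, Mcam, Ahnak, Cdv3, Hnrnpu and Pgk1-rs7. Ppfibp1, which encodes liprin beta 1, was steady, with a share of 52.7% to 62.1% at a sum of 379 to 449 TPM over the 5 libraries. Ahnak ranged from 51.1% to 68.6% at 148 to 177 TPM. Cdv3 had shares of 62.6%, 41.8% and 64.5% with chloride and 63.7% and 23.6% with propionate at a sum of 128 to 147 TPM, so its libraries diverged within both groups. Pgk1-rs7, a processed pseudogene of phosphoglycerate kinase, stood at 99.6% in all 5 libraries.

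The widest chloride ranges, other than that of Ptges3, were in weakly expressed loci. Erfe, which encodes the iron hormone erythroferrone, had shares of 100%, 3.26% and 0% with chloride and 98.3% and 100% with propionate at 1.19 to 1.79 TPM. Ces1a, a carboxylesterase, was at 0% in chloride replicate 3 alone and at 99.0% to 99.8% elsewhere. Prkab2, a regulatory subunit of AMP-activated kinase, had 0%, 51.4% and 94.5% with chloride and 92.3% and 93.1% with propionate, while its sum held between 2.28 and 2.46 TPM. Etv4, an ETS transcription factor, was at 0% in 1 library of each group, and Dennd2a ran from 0.845% to 98.6% within chloride.

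**Figure D2:**
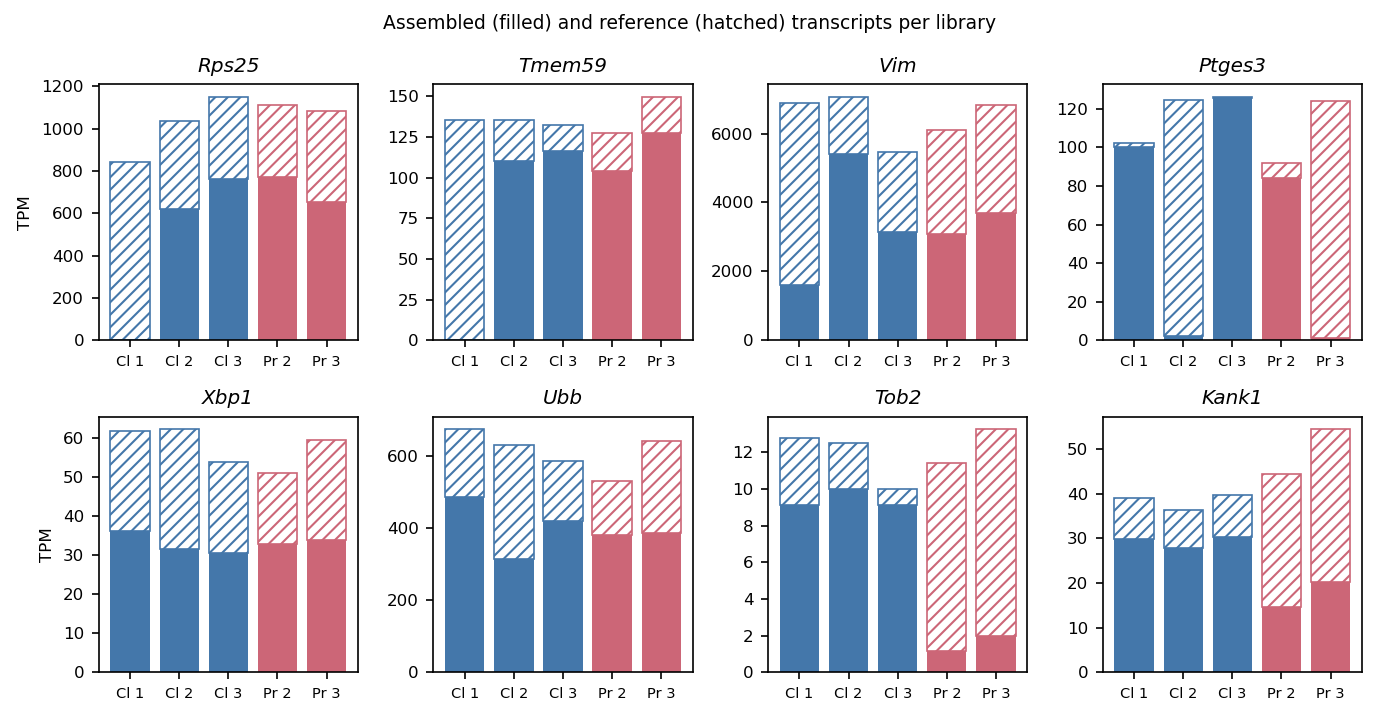
Summed TPM of 8 loci in chloride (Cl, blue) and propionate (Pr, red) libraries, split into assembled (filled) and reference (hatched) transcripts. Rps25 and Tmem59 show no assembled part in chloride replicate 1 and Ptges3 alternates within both groups at similar sums, whereas the assembled part of Tob2 and Kank1 is smaller in both propionate libraries.

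The share test asked whether propionate moved the split between assembled and reference transcripts. Of the 1104 loci, 982 had a mean share of at most 95% and were tested, and the 122 above are given by their values only. No locus of the set passed the limma test at an adjusted p of 0.05, in either direction. Over all 3942 loci tested the call rates were 0.0507% for a higher share and 0.0% for a lower one, so the count of 0 is near the background. At an unadjusted p of 0.05, limma gave 23 loci with a higher and 17 with a lower share, together 4.07% against 5.02% of all tested. The groups did not overlap in 120 loci with a higher share (12.2%) and in 75 with a lower share (7.64%), where the background was 10.5% and 8.83%.

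The lowest p among lower shares belonged to Tob2, an antiproliferative protein of the BTG/TOB family. Its assembled share was 71.3%, 79.8% and 90.9% with chloride and 10.3% and 14.8% with propionate. The groups were far apart, yet the adjusted p from limma was 0.248, and the sum of 10 to 13.3 TPM overlapped between groups. Each propionate share was below the share bound of the set, so Tob2 reached that bound through the chloride libraries. The lower Tob2 share with propionate is therefore a description. The leading transcript starts 1179 bases upstream of the GENCODE start of the reference transcripts and holds a whole reference coding sequence. Its level was 9.04, 6.41 and 6.21 TPM with chloride and 0.711 and 1.35 TPM with propionate, while the reference transcript ENSMUST00000050467 was at 3.10, 1.84 and 0.225 TPM and at 9.69 and 10.7 TPM. The group means of the share were 80.7% ± 9.85 (SD, n = 3) and 12.6% ± 3.19 (SD, n = 2).

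Kank1, an adaptor between focal adhesions and the cell cortex, had shares of 76.1%, 76.6% and 76.6% with chloride and 32.9% and 37.3% with propionate (limma adjusted p = 0.259). The chloride libraries were within 1 point of each other and both propionate libraries lay below them. Kank1 likewise reached the share bound of the set through the chloride libraries, so its lower share with propionate is a description. The reference transcript ENSMUST00000049400, which starts at chr19 position 25236975, was at 4.31, 1.97 and 0 TPM with chloride and at 25.2 and 22.9 TPM with propionate. The leading assembled transcript starts far downstream of it, at position 25406289, and was at 4.64, 5.53 and 6.0 TPM with chloride and 4.26 and 6.19 TPM with propionate. The assembled level of the locus as a whole was lower in both propionate libraries, a fall in other assembled transcripts that are not described here. The Kank1 sum was 39.1, 36.3 and 39.7 TPM with chloride and 44.4 and 54.5 TPM with propionate (fold 1.29, limma adjusted p = 0.152), so it did not pass the test.

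Ccdc120, Smtn, Pou6f1 and Mnt followed among the lower shares. Ccdc120 went from 92.0%, 96.0% and 90.0% with chloride to 21.8% and 17.4% with propionate, at a sum of only 1.35 to 2.45 TPM. Smtn, which encodes the actin-binding smoothelin, went from 87.0%, 88.6% and 85.6% to 51.6% and 58.1%, and its leading transcript retains an intron. Neither had overlapping groups. Pou6f1, a POU homeodomain factor, had shares of 75.2%, 92.0% and 79.2% with chloride and 40.4% and 31.2% with propionate, and Mnt, a MAX-binding repressor, had 98.9%, 93.6% and 98.6% and then 42.3% and 68.1%. The adjusted p from limma was 0.620 for Ccdc120 and Smtn, 0.646 for Pou6f1 and 0.758 for Mnt. Ccdc120 and Pou6f1 were below the share bound of the set in both propionate libraries. They reached that bound through the chloride libraries, so their lower share with propionate is a description.

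Among higher shares the pseudogene Rpsa-ps12 had the lowest p. Its assembled transcript was listed at 0 in all 3 chloride libraries and carried 57.4% and 89.0% of the locus with propionate (limma adjusted p = 0.248). Zmym4, a zinc finger protein gene, had shares of 30.5%, 43.0% and 33.9% with chloride and 83.4% and 69.8% with propionate. Its leading transcript, with an acceptor 3 bases off, was at 4.25, 5.44 and 4.57 TPM with chloride and 9.55 and 3.79 TPM with propionate. The level of that transcript thus overlapped between groups. The reference transcript ENSMUST00000106108 was at 9.14, 5.77 and 7.04 TPM with chloride and 0.534 and 2.57 TPM with propionate. Cyclin D3 (Ccnd3), a partner of CDK4 and CDK6, had shares of 39.8%, 53.4% and 51.3% with chloride and 83.4% and 75.6% with propionate. The shares of Zmym4 and Ccnd3 did not overlap between groups, and both had an adjusted p of 0.620 with limma. The chloride mean was below 50% in Rpsa-ps12, Zmym4 and Ccnd3, so these loci reached the bound through the propionate libraries and their higher share there is a description. Zfp248, the DNA damage kinase gene Atm and the cytokine gene Il18 were the next 3, all with non-overlapping groups and an adjusted p of 0.620.

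**Figure D3:**
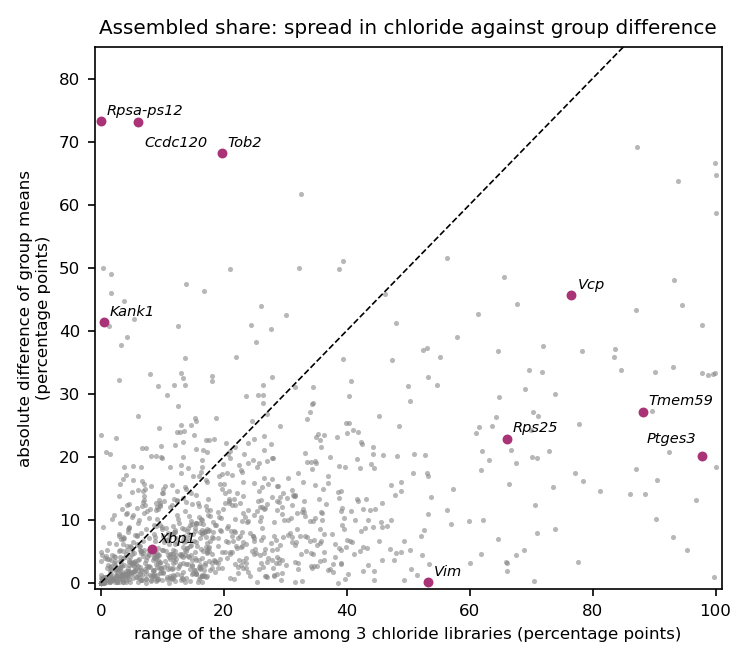
Absolute difference between the mean assembled shares of propionate and chloride against the range of the share within the 3 chloride libraries, both in percentage points, 1 point per locus (1104 loci), with the dashed line marking equality and named loci in purple. The 218 loci above the line differ between groups by more than the chloride range, a count without a background from other loci. Rps25, Tmem59, Vcp, Ptges3 and Vim lie below the line.

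Single assembled transcripts gave a similar picture. Of 2569 assembled transcripts of the set with a mean of at least 1 TPM, limma called none higher and 1 lower, where the background over all 32170 transcripts tested was 0.0218% and 0.0187%. At an unadjusted p of 0.05, 84 were higher (3.27%, against 3.39% of all transcripts tested) and 108 lower (4.2%, against 3.8%). The call was an Araf transcript (MSTRG.24591.3), from a gene for a kinase of the RAF family, with 31.8, 18.1 and 26.6 TPM with chloride and 0 in both propionate libraries. Its adjusted p from limma was 0.0469, and it did not pass when any 1 library was left out (0.0790 to 0.294). Araf falls outside the naming rule and was chosen after its values were seen. The share of Araf was 78.0%, 53.4% and 76.1% with chloride and 47.7% and 39.1% with propionate, and its sum of 49.7 to 65.3 TPM overlapped between groups. Both propionate shares were below 50%, so Araf reached the bound through the chloride libraries. No leading transcript passed. The lowest p among leading transcripts was that of Csnk1e, casein kinase 1 epsilon, which had 15.1 and 28.9 TPM with propionate and was listed at 0 with chloride (limma adjusted p = 0.0928).

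The leading transcript of Alms1, a gene of the centrosome and cilium, went the other way, with 3.68, 2.88 and 3.63 TPM with chloride and 0 and 0.0957 TPM with propionate (limma adjusted p = 0.170). The sum of Alms1 was 6.77 to 7.20 TPM with chloride and 6.30 and 7.20 TPM with propionate, which overlapped. Sdccag8, another centrosomal gene, and Uaca were lower too, with leading transcripts at 6.61 to 8.59 TPM against 2.52 and 2.60 TPM for Sdccag8 and at 4.79 to 8.13 TPM against 1.80 and 2.05 TPM for Uaca (limma adjusted p = 0.228 and 0.422). Neither sum separated the groups.

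A level of 0 was common for these transcripts. The leading transcript was listed at 0 in at least 1 library in 138 loci (12.5%), and in 32 of the 471 loci where its mean was at least 5 TPM. These zeros were spread over all 5 libraries, with 39, 31 and 50 loci in the chloride libraries and 35 and 32 in the propionate libraries.

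The summed level of the locus changed in 34 of the 1104 loci. Limma called 19 loci higher with propionate (1.72%) and 15 lower (1.36%), where the background over 14824 loci was 1.69% and 0.688%. In all 34 the groups did not overlap. Because TPM depends on isoform length, the test was repeated on the aligned bases of each locus (coverage times exonic length, scaled to the same total in every library), an alternative chosen after seeing the data. Of the 34 loci 32 passed there as well, and none changed direction. Limma then called 65 loci of the set higher (5.89%) and 64 lower (5.80%), where the background was 5.54% and 3.70%. The exceptions were Rpsa-ps12, whose groups overlapped in aligned bases (fold 1.35, adjusted p = 0.290), and Gramd1b (ratio 0.777, adjusted p = 0.0786). Non-overlap alone was seen in 171 loci higher (15.5%) and 237 lower (21.5%), against a background of 15.0% and 19.3%. In bulk RNA a larger number of cells making a transcript and more transcript per cell cannot be told apart. Of the 34 loci 25 were protein-coding, 4 long intergenic RNAs, 3 processed pseudogenes, 1 antisense and 1 of another type (TEC in GENCODE).

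Of the 19 loci that rose, the long non-coding RNA 9130015A21Rik had the largest log2 difference. It was at 16.4, 20.1 and 16.7 TPM with chloride and 57.7 and 54.6 TPM with propionate. Both propionate libraries were far above all chloride libraries, and the means were 17.7 ± 2.08 TPM (SD, n = 3) and 56.2 ± 2.21 TPM (SD, n = 2), with a fold of 3.17 and a log2(TPM + 1) difference of 1.62 ± 0.11 (SE, limma adjusted p = 0.00058). Its assembled transcript carried 96.9% to 99.2% of the locus in every library and has an exon outside the reference exons. For weakly expressed loci a log2(TPM + 1) difference is smaller than the fold of mean TPM.

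Prkg2, cGMP-dependent protein kinase II, was at 19.5, 15.5 and 17.9 TPM with chloride and 37.9 and 37.2 TPM with propionate (fold 2.13, limma adjusted p = 0.00349). Cyp1b1, a cytochrome P450 that oxidises steroids and aryl hydrocarbons, was at 3.11, 3.65 and 3.67 TPM with chloride and 8.41 and 7.37 TPM with propionate (fold 2.27, adjusted p = 0.00804). Both genes rose in both propionate libraries. Their shares did not separate the groups, at 60.5%, 44.9% and 56.2% against 56.9% and 53.6% for Prkg2.

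Postn, the matricellular protein periostin, was at 6.13, 6.49 and 6.74 TPM with chloride and 11.8 and 11.7 TPM with propionate (fold 1.82, limma adjusted p = 0.00932). Itga4, the integrin alpha 4 subunit, rose 1.64-fold from 14.5 to 16 TPM with chloride to 24.2 and 25.8 TPM with propionate. The adhesion molecule Chl1 rose 1.44-fold, from 70.4 to 86.8 TPM to 107 and 117 TPM, and the metalloprotease Adam9 rose 1.38-fold. From the list of matrix and adhesion genes, Itgav and Col5a1, an integrin subunit and a collagen chain, were 1.53-fold and 1.44-fold higher with non-overlapping groups but did not pass (limma adjusted p = 0.0643 and 0.0778).

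Other loci that rose included Septin4 (2.73-fold), a septin, Dram1 (1.73-fold), an autophagy regulator under p53, and Neb (1.43-fold), the thin filament protein nebulin of muscle. Hhla1 (3.76-fold), Gipc2 (2.67-fold), Fam178b (1.86-fold) and the loci with predicted names Gm35019 (2.58-fold), Gm43823 (2.59-fold), Gm30938 (2.31-fold) and Gm5763 (1.59-fold) rose as well. The TPM sum of Rpsa-ps12 was 3.01-fold higher, but its assembled transcript is 265 bases long and its reference transcript 1010, and the assembled one was listed at 0 with chloride. In aligned bases, on a scale of 1000000 in total per library, Rpsa-ps12 stood at 2.40, 2.53 and 3.35 with chloride and 4.32 and 3.13 with propionate, which overlapped. Hhla1, Septin4, Gipc2, Gm43823 and Gm30938 were below 2.5 TPM in every chloride library.

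Of the 15 loci that fell, 9630013A20Rik had the largest log2 difference. It was at 8.46, 8.79 and 7.53 TPM with chloride and 3.80 and 2.78 TPM with propionate, a ratio of 0.398 (log2 difference -1.12 ± 0.14, SE, limma adjusted p = 0.00673). Bcas1, whose 3-base join is shown above, was at 95.6, 86.8 and 92.7 TPM with chloride and 52.6 and 68.1 TPM with propionate (ratio 0.658, limma adjusted p = 0.0387). Both genes were lower in both propionate libraries without overlap. The Bcas1 share overlapped between groups, at 66.3%, 78.4% and 33.9% with chloride and 76.1% and 42.1% with propionate.

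Ntm, the neural adhesion protein neurotrimin, fell to a ratio of 0.681, from 61.4 to 64.2 TPM with chloride to 41.7 and 43.4 TPM with propionate. Tbl3, a protein of early ribosomal RNA processing, fell to 0.586 from 31.9 to 33.9 TPM to 23.1 and 15.5 TPM, and its ratio in aligned bases was 0.812. Zfp239, a zinc finger protein, fell to 0.643 from 48.2 to 49.4 TPM to 31.2 and 31.6 TPM. The other loci that fell were C530044C16Rik (0.529), Tnrc18 (0.585), Gramd1b (0.591), Slfn4 (0.608), Cc2d2a (0.633), Dcaf8l (0.648), Hmgn2-ps1 (0.655), Ehbp1 (0.699), Nipal3 (0.707) and Reps2 (0.712). Loci named beyond the first 8 in each direction, and those with predicted names, were chosen after their values were seen. Limma called 1 of the 34 without propionate replicate 3, 10 without propionate replicate 2, 13 to 21 without a chloride library and 0 with no minimum level. Without a propionate library the lone remaining one is assumed to vary like the chloride libraries. With the reference transcripts alone (25 of the 34 could be fitted) or the assembled transcripts alone it called none of the 34, and the reference sums of Rpsa-ps12, Hmgn2-ps1, Tbl3 and Adam9 had the opposite sign.

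**Figure D4:**
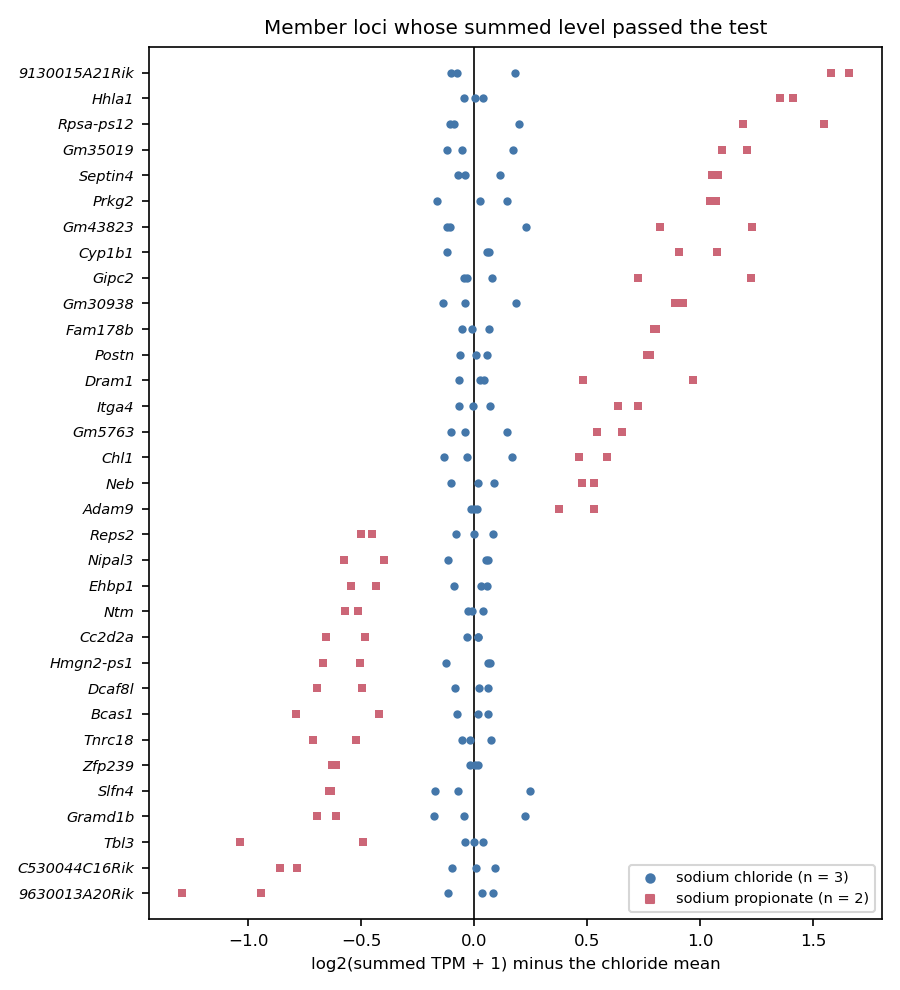
log2(summed TPM + 1) of loci called by limma and reported here, each library minus the locus's chloride mean, for 3 chloride (blue circles) and 2 propionate (red squares) libraries. Loci with higher sums are at the top and the 15 with lower sums below, and in none of those drawn do the groups overlap.

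In 268 loci (24.3%, against 18.4% of the other mixed loci) the leading transcript has at least 1 exon wholly outside the reference exons. These exons carry reads that no reference transcript of the locus can take, so they were compared with the other exons of the same transcript. They were covered at least once per base in all 5 libraries in 203 of the 268 and at 0 in at least 1 library in 47. In the 261 with a ratio, the mean coverage of outside exons was a median of 56.6% of that of the other exons, above 50% in 140 and below 10% in 35 (13.4%). The median was 67.6% where the leading transcript was below 5 TPM (180 loci), 29.2% between 5 and 20 TPM (61 loci) and 32.5% at 20 TPM or more (20 loci). In the other mixed loci the median was 48.1% (640 loci), and 99 (15.5%) were below 10%.

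Vim, which encodes the intermediate filament protein vimentin, is the most abundant locus of the set and shows the low end of that range in an assembled transcript that is not its leading one. MSTRG.12033.1 (chr2:13557770-13582826, plus strand) has 5 exons upstream of the gene and 9 exons shared with it. Its upstream exons were covered 0.885 to 67.3 times per base over the 5 libraries. The shared exons of the same transcript were covered 345 to 50530 times. The TPM of this transcript was 314, 65.7 and 2444 with chloride and 275 and 3698 with propionate.

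The other assembled Vim transcript, MSTRG.12033.3, lies within the bounds of the gene and splits exon 1 of ENSMUST00000028062. It ends its own exon 1 at chr2 position 13574060 and starts exon 2 at 13574394. The reference transcript ENSMUST00000141365 has this same intron. The first exon of MSTRG.12033.3, of 109 bases, was covered 1.09, 8.15 and 3.73 times per base with chloride and 8.34 and 0 times with propionate. The second exon of the same transcript was covered 5626, 25000 and 3136 times and 12570 and 0 times, so the thin coverage of the first exon held in every library where the transcript was present. The transcript was at 1303, 5356 and 685 TPM with chloride and 2809 and 0 TPM with propionate, while the reference transcript ENSMUST00000028062 was at 5211, 1562 and 2274 TPM and at 2762 and 706 TPM. The assembled share was 23.4%, 76.6% and 57.2% with chloride and 50.6% and 54.1% with propionate. The sum, 6897, 7073 and 5472 TPM with chloride and 6098 and 6841 TPM with propionate, did not differ beyond the spread (fold 0.998, limma adjusted p = 0.991).

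Other abundant leading transcripts, chosen after their values were seen except Mcam, Prkg2 and Cyp1b1, also had thinly covered outside exons. The ratio was 1.72% in the adhesion molecule gene Mcam (CD146), 1.80% in the deISGylase gene Usp18, 0.993% in the ubiquitin ligase scaffold gene Cul4b, 1.14% in Prkg2 and 5.96% in the deubiquitinase gene Usp7. In Prkg2 the outside exon was covered 3.69 times per base in chloride replicate 2 and listed at 0 in the other 4 libraries. By contrast the ratio was 54.1% in Nup155, a nuclear pore protein gene, 36.9% in Pnpt1, which encodes a mitochondrial RNA exonuclease, 57.4% in 9130015A21Rik and 107% in Cyp1b1. In Dram1 it was 414%, so the exon outside the reference was the better covered one.

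**Figure D5:**
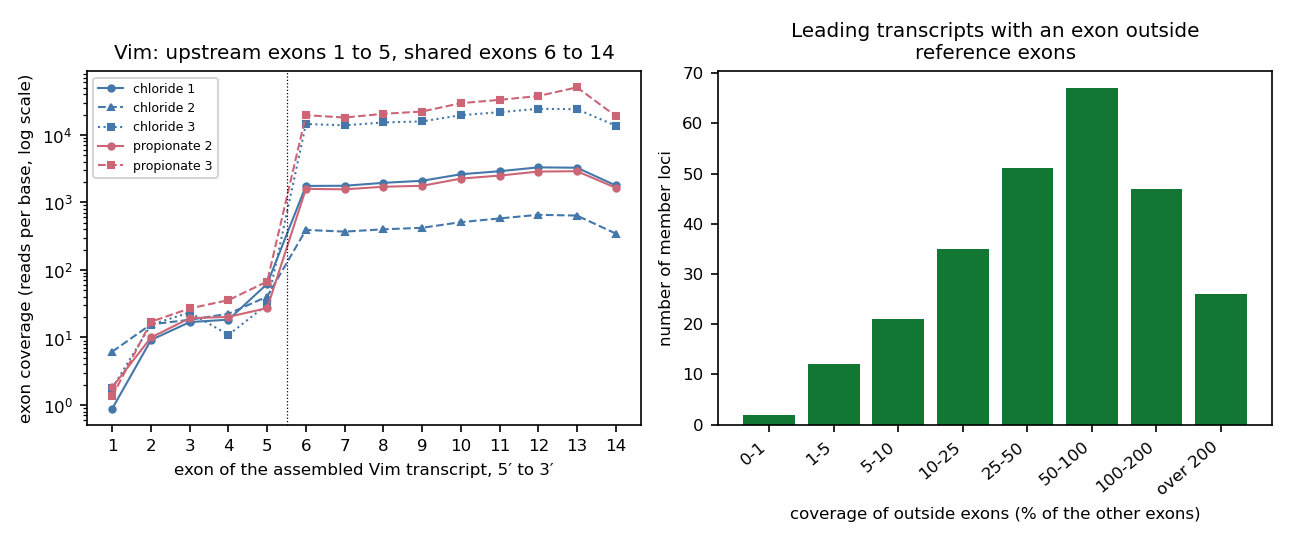
Left, coverage (reads per base, log axis) of the 14 exons of the assembled Vim transcript in each library, where the 5 upstream exons lie between 0.885 and 67.3 and the 9 shared exons between 345 and 50530. Right, number of loci by the coverage of outside exons as a percentage of the other exons of the leading transcript (261 loci, unequal classes), with 35 below 10% and 140 above 50%.

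Of 11 gene lists, splicing factors and hnRNPs, the proteins that choose splice sites, had the most loci in the set. They held 11 of the 46 listed genes found as mixed loci (23.9%), a share close to the 23.5% of all mixed loci, among them Hnrnpu, Rbm39, Hnrnpa2b1, Srsf5, Srsf7, Mbnl1, Srsf10, Luc7l2, Celf1 and Srrm1. None of the 11 passed the share test or the sum test. Hnrnpu, a chromatin-associated RNA-binding protein, had shares of 62.9%, 46.5% and 56.2% with chloride and 43.8% and 68.8% with propionate, which overlapped. Rbm39, a splicing coactivator, had shares of 47.4% to 58.5% over the 5 libraries. Hnrnpa2b1 had 57.7%, 45.1% and 57.6% with chloride and 56.6% and 69.3% with propionate. The median log2(TPM + 1) difference of the 11 sums was -0.18, against -0.024 over all 14824 loci.

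The other lists had 0 to 2 loci each, and no member passed a test. Propionate and branched-chain acyl-CoA catabolism had 0 of 9 mixed loci in the set, cytosolic translation factors 0 of 13, and actin and microtubule genes 1 of 14. Vim stood for intermediate filaments (1 of 5), Itgav and Col5a1 for matrix and adhesion (2 of 15), Kcnq1ot1 for abundant non-coding genes (1 of 1), Gapdh for glycolysis (1 of 4), Xbp1 for folding in the endoplasmic reticulum (1 of 14), Ccnd3 for the cell cycle (1 of 15) and Hdac4 for deacetylases (1 of 8). Hdac4, a class II deacetylase, had shares of 47.7%, 68.0% and 57.7% with chloride and 69.5% and 90.3% with propionate, without overlap (limma adjusted p = 0.919). Gapdh, a glycolytic enzyme with many near-identical pseudogenes that make the place of its reads uncertain, was at only 56.2, 24.3 and 16.1 TPM with chloride and 11.2 and 12.7 TPM with propionate (limma adjusted p = 0.166). The outside exon of its leading transcript had 3.05% of the coverage of the other exons.

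At the bounds of the set, Pitrm1 and Rsl1 stood just inside with mean shares of 50.05% and 50.08%, and Phf20l1 and Septin7 just outside with a mean share that rounds to 50% from below and with 49.99%. By level, Gm40578 and Gm16026 stood just inside the sum of 1 TPM (1.00 and 1.07 TPM) and Rps18-ps1 and Gm16183 just outside (0.982 and 0.979 TPM). Rsl1 shows how uneven a locus near the bound can be, with shares of 96.9%, 29.1% and 80.8% with chloride and 49.5% and 0% with propionate.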

How the data were processed

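Total RNA from GL261 cells was made into stranded libraries, per the labels' protocols. Reads were converted with bcl2fastq, trimmed with fastp, aligned with HISAT2 to mm10 and assembled with StringTie, per the submitters' processing notes. Per the file headers, StringTie 2.1.1 then estimated levels against a merged annotation with no strand option, so overlapping or antisense genes may share reads. Reads of near-identical copies cannot be told apart either. The authors deposited TPM, FPKM and per-base coverage for each transcript and coverage for each exon. No read counts are given, so the counting error behind a value is unknown.

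The members, gene lists and naming rule were chosen with earlier results of these data known. The rule named, among genes without predicted names, the 12 highest sums, the 6 smallest share p-values in each direction, up to 8 called sums in each direction, the leading transcripts that passed or else the 4 smallest p-values in each direction, 2 loci on either side of each bound, the 6 widest chloride ranges, up to 3 members per list, 2 per structure class, and Vim. Joins were shown for 6 loci with new splice sites by level of the leading transcript.

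TPM was summed over the assembled and the reference transcripts of each locus in Python 3.11.15 (pandas 2.3.3, numpy 2.4.6). Shares (arcsine of the square root, mean share 5% to 95%), locus sums and transcripts (log2(TPM + 1), mean of at least 1 TPM) were fitted over all features with limma 3.58.1 in R 4.3.3 (trended empirical Bayes, group as the only term, two-sided, Benjamini-Hochberg adjustment, threshold 0.05), after tests on simulated data. Ends, coding sequences and joins were taken from GENCODE M21, which held 99.26% of the reference transcripts of the mixed loci, and of these 99.82% had the same left-hand end and 34.0% the same right-hand end in the deposited files. Alternatives changed the minimum level, pseudocount, unit (FPKM), scaling, share measure and bounds, transcripts summed, replicate block and libraries included, and 1 added after seeing the data used aligned bases in place of TPM sums. Some results are not reported here.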

Additional observations from a re-analysis of the deposited data

How the results depend on the processing

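No locus of the set was called in the share test under any of the 13 alternatives. For 1 of them, which only narrowed the main result to loci with a higher mean share, the count of 0 was fixed in advance. Of the assembled transcripts, 0 were called higher, also in every alternative except 22 without propionate replicate 2, where the lone propionate library is assumed to vary like the chloride ones, and the range when 1 library was left out was 0 to 22. The count of lower transcripts, 1, ranged from 0 to 3 when 1 library was left out and was 0 with the replicate block, a minimum mean of 5 TPM, no minimum, FPKM and median-of-ratios scaling. The 19 higher sums became 1 to 15 and the 15 lower sums 2 to 12 when 1 library was left out, lowest without propionate replicate 3. With no minimum they became 0 and 0, with reference transcripts only 2 and 0, and with assembled transcripts only 0 and 0. With aligned bases, chosen after seeing the data, they became 65 and 64, and 32 of the 34 calls held. With reference transcripts only, the log2 difference reversed for Rpsa-ps12 (-0.42), Hmgn2-ps1 (0.12), Tbl3 (0.20) and Adam9 (-0.40); the cause was not tested. All 34 calls held with FPKM, 33 with a pseudocount of 0.1 TPM, 31 with median-of-ratios scaling and 25 with the replicate block, which called 27 higher and 15 lower. The labels number replicates but state no pairing. The differences between replicates 2 and 3 of the groups correlated at -0.17 over 14824 sums and -0.038 over 1104 shares. With 1 such difference per group, it cannot be told whether samples of equal number share a batch. The propionate group has 2 libraries and depth in reads is unknown, which limits every comparison here.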
